A study of Ovis aries with 16 samples.

Results

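Expression of *GPD1* (ENSOARG00020023447) and *MPC1* (ENSOARG00020026121) was followed liver by liver in bulk RNA sequencing of 16 fetal sheep. These 2 of the 26478 genes in the count table were chosen on their difference between hypoxic and normoxic livers in these same data, so that difference is a description here and carries no test. *GPD1* was taken by its identifier, and *MPC1* by the symbol that the study's supplementary gene list pairs with an identifier. All fetuses were singletons of Welsh Mountain ewes, with the stage labelled as 0.9 gestation. CON fetuses (5 male and 4 female) came from ewes in normoxia, and HOX fetuses (3 male and 4 female) came from ewes held in hypoxic chambers for 30 days of late gestation. Collection was at about day 130 by the series' design text, and the study's methods give a later day. Each liver came from a different animal and is 1 replicate. Total counts per liver lay between 24065959 and 29353692 in CON (median 27762095) and between 23955166 and 33952503 in HOX (median 25055592). A liver is a mixture of cells, so fewer cells of a type and less RNA per cell cannot be told apart in any value given here.

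*GPD1* encodes the cytosolic glycerol-3-phosphate dehydrogenase, which turns dihydroxyacetone phosphate into glycerol 3-phosphate and NADH back into NAD+. Its product can be oxidised at the mitochondrial membrane, which passes the electrons of cytosolic NADH to the respiratory chain, or can serve as the backbone of triglycerides and phospholipids, both made in large amounts by hepatocytes. *MPC1* encodes a subunit of the mitochondrial pyruvate carrier, which works as a complex with MPC2 and brings cytosolic pyruvate to the enzymes that oxidise it to acetyl-CoA or carboxylate it on the way to glucose.

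*GPD1* was lower in every HOX liver than in every CON liver. Values are normalised read counts (CPM, the reads on a gene scaled to TMM-adjusted library size), which are not corrected for gene length and are not compared between genes. In CON livers *GPD1* had a lowest value of 66.6, a median of 112 and a highest value of 154 CPM, and in HOX livers the lowest was 34.3, the median 36.6 and the highest 59.6 CPM. The groups did not overlap, although the lowest CON liver (animal 2) was only 1.12 times the highest HOX liver (animal 4), a gap smaller than the SD of either group. Mean *GPD1* was 105 ± 26.4 CPM in CON (SD, *n* = 9) and 43.5 ± 10.4 in HOX (*n* = 7), a ratio of HOX to CON of 0.414. On the log2 scale the fitted difference was −1.27 (SE 0.174), and it was −1.23 without HOX animal 1, a liver that stood apart in other genes (below).

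Within CON, animal 9 had the highest *GPD1* at 154 CPM, followed by animal 3 at 118. Animals 7, 1, 4 and 5 lay close together at 114, 114, 112 and 107 CPM. A lower set followed, with animal 8 at 80.2, animal 6 at 79.1 and animal 2 at 66.6 CPM. Animals 7, 1 and 4, and likewise animals 8 and 6, differed by no more than the counting error of their values and have no order among them. Within HOX, animals 4, 5 and 6 held 59.6, 52.0 and 50.9 CPM, and animals 3, 1, 2 and 7 held 36.6, 35.5, 35.2 and 34.3 CPM. These last 4 livers sat within counting error of their neighbours in the order, and they included 3 of the 4 HOX females. Reads on *GPD1* numbered 1831 to 4269 in CON and 832 to 1429 in HOX, so that counting error was 1.53% to 3.47% of a value. The coefficient of variation between livers was 25.2% in CON and 24.0% in HOX, so the spread within groups was mostly not counting error.

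*MPC1* did not separate the groups, and 1 liver set its HOX mean. In CON livers the lowest value was 31.5, the median 41.7 and the highest 50.7 CPM, and in HOX livers the lowest was 29.2, the median 32.9 and the highest 95.0 CPM. The highest HOX value belonged to animal 1, a female, which exceeded the mean of the other 6 HOX livers 2.85 times and the highest CON liver 1.87 times. The other 6 HOX livers spanned 29.2 to 40.7 CPM and overlapped the lower part of the CON range. Mean *MPC1* was 41.7 ± 6.17 CPM in CON (*n* = 9) and 42.1 ± 23.6 in HOX (*n* = 7), and 33.3 ± 4.02 in HOX without animal 1 (*n* = 6). The fitted log2 difference was 0.02 (SE 0.214) with all livers and −0.32 without HOX animal 1. Its sign was not stable, since it also turned without CON animal 5 (−0.01) and with the sample weights of limma-voom (−0.28). Of the 7 HOX livers, 6 were below the CON mean and 3 were below the lowest CON liver. Among those 3, HOX animals 2 and 3, at 31.4 and 31.3 CPM, lay within counting error of that liver at 31.5.

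In the order of *MPC1*, CON animals 4 and 3 were level at 50.7 and 50.6 CPM, followed by animals 6, 9, 7 and 8 at 43.6, 42.1, 41.7 and 39.3. CON animals 2 and 1 had 37.9 and 37.7 CPM, and animal 5 was lowest at 31.5. In HOX, animal 5 followed animal 1 with 40.7 CPM, then animal 6 with 34.5 and animal 7 with 32.9. HOX animals 2, 3 and 4 closed the order with 31.4, 31.3 and 29.2 CPM. CON animal 5 therefore lay among the HOX livers for *MPC1*, whereas for *GPD1* it lay in the middle of the CON livers. Between 699 and 3262 reads fell on *MPC1*, and counting error was 1.75% to 3.78% of a value, so neighbours such as CON animals 4 and 3 or HOX animals 2 and 3 were not ordered beyond it.

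**Figure D1:**
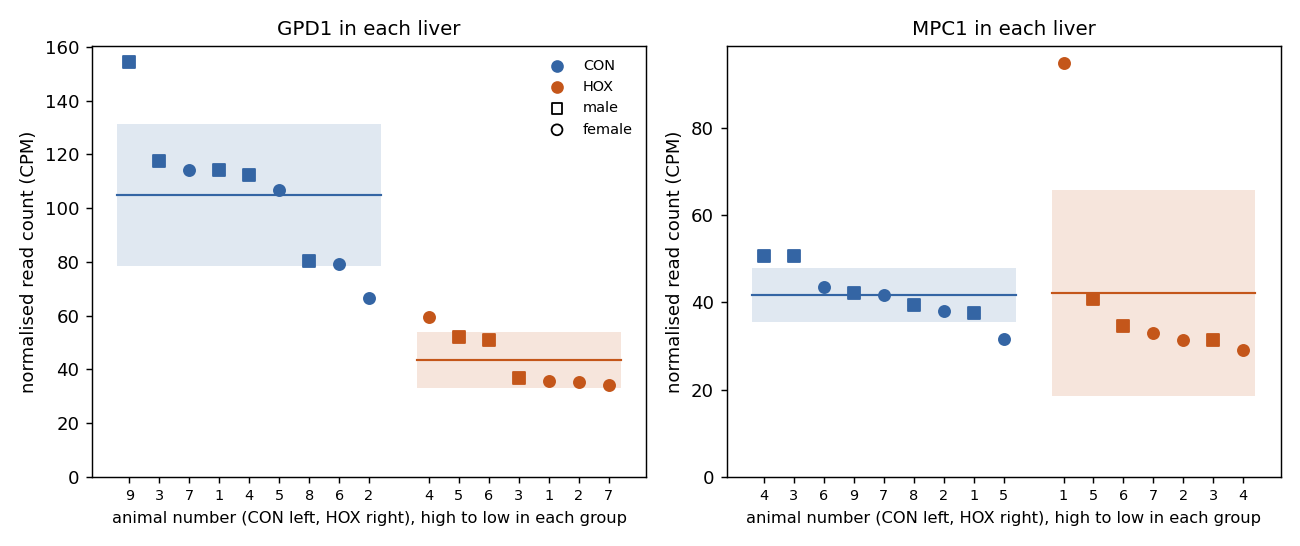
*GPD1* (left) and *MPC1* (right) in each of 16 livers, in CPM on a linear axis from 0, with livers ordered from high to low within CON (blue) and HOX (orange), squares for males and circles for females. Lines are group means and bands 1 SD; *GPD1* bands lie apart at 105 ± 26.4 and 43.5 ± 10.4 CPM, while for *MPC1* HOX animal 1 stands alone at 95.0 CPM.

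The background comes from the same fit over the 8580 genes that reached 250 reads in 8 or more livers. By edgeR's quasi-likelihood test, 5 genes (0.0583%) passed an adjusted *P* of 0.15, 5 of them lower in HOX, and *GPD1* was among them and *MPC1* was not. The other 4 were *GSS*, *DNAJC22*, *FKBP1B* and ENSOARG00020010401, named here after their values were seen. DESeq2 called 237 genes (2.76%), 99 higher and 138 lower in HOX, again with *GPD1* and without *MPC1*. Without HOX animal 1 DESeq2 called 523 genes (6.16%), with *MPC1* as well as *GPD1* among them. In edgeR without that liver *MPC1* was not called (adjusted *P* = 0.208). Complete separation of the groups with lower values in HOX was found in 6 genes (0.0699%), which were *GPD1*, *GSS*, *CALML4*, *ADK*, *DIRAS3* and *SESTD1*, the last 3 also named after their values were seen. With higher values in HOX it was found in 1 gene. The number of edgeR calls was unstable, from 1 to 47 when each liver was left out. There were 47 without HOX animal 5 (22 higher and 25 lower in HOX). The count was 12 without HOX animal 1, 10 without CON animal 6 and 8 without CON animal 2. It was 1 without CON animal 4 or 9 or HOX animal 2, 3, 6 or 7, 2 without CON animal 3 or 8, and 3 without CON animal 1. Since both genes were chosen on this contrast, nothing is read from these counts.

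HOX animal 1 was unlike the other livers across much of the transcriptome. It scored 64.4 on the first principal component of log2 CPM, which held 25.6% of the variance, and the other 15 livers scored between −15.6 and 6.23. It was the highest of the 16 livers in 1881 of 8580 genes (21.9%) and the lowest in 2022 (23.6%), whereas any other liver was highest in 228 to 943 genes and lowest in 190 to 987. *MPC1* was 1.52 log2 units above the mean of the other HOX livers in this liver, the 201st largest excess, and 2.34% of genes had an excess at least as large. For *GPD1* the same difference was −0.30, and 65.0% of genes lay at or above it. Results on *MPC1* are therefore given with and without HOX animal 1.

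*GPD1* and *MPC1* showed no detectable relation to each other within groups. In CON (*n* = 9) Pearson's *r* was 0.223 (exact permutation *P* = 0.572) and Spearman's rho 0.300 (exact permutation *P* = 0.437). In HOX (*n* = 7) *r* was −0.284 (exact permutation *P* = 0.705) and rho −0.179 (exact permutation *P* = 0.713), and *r* turned to 0.184 without animal 1. Over all 16 livers, with each value taken relative to its group mean, *r* was −0.0929 (permutation *P* = 0.813) and rho −0.00588 (permutation *P* = 0.987), and *r* was 0.210 without HOX animal 1. Leaving out the 2 livers farthest from the median of *GPD1* gave *r* = 0.229 in CON, −0.174 in HOX and −0.0320 over both groups. All *P* values are 2-sided, and after Benjamini-Hochberg adjustment over the 33 relations computed here those for *r* were 0.747, 0.780 and 0.839, and those for rho 0.720, 0.969 and 1.00.

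**Figure D2:**
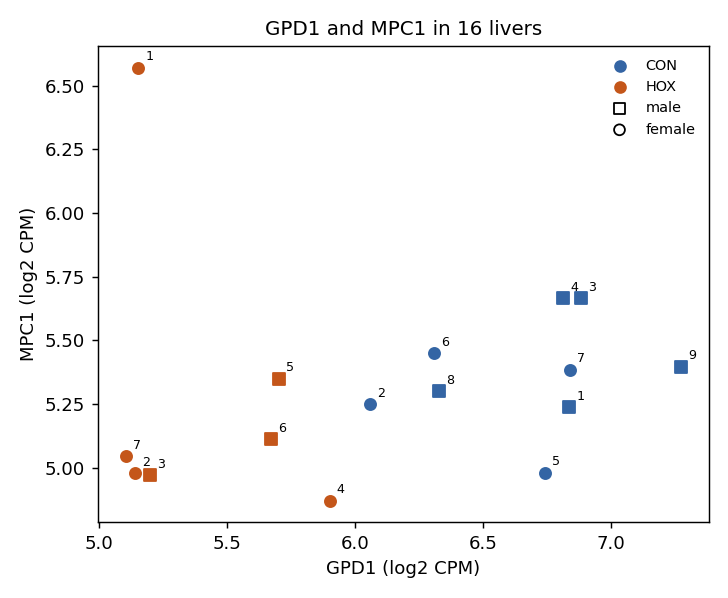
*MPC1* against *GPD1* in 16 livers (log2 CPM on both axes), with CON in blue, HOX in orange, squares for males, circles for females and numbers for animals. The groups separate along the *GPD1* axis, and HOX animal 1 stands above the other livers in *MPC1*.

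Cell type markers and library measures were set beside both genes in the same way. Of 17 hepatocyte markers listed, 11 had a symbol and were measured, and the relation of their mean log2 CPM to *GPD1* rested largely on 1 of them, *AFP*. With all 11 the relation had *r* = 0.540 in CON (exact permutation *P* = 0.132), 0.625 in HOX (exact permutation *P* = 0.105) and 0.559 over the 16 group-centred livers (permutation *P* = 0.0212, adjusted *P* = 0.174). Spearman's rho was 0.667 in CON (exact permutation *P* = 0.0589), 0.786 in HOX (exact permutation *P* = 0.0480) and 0.671 over the 16 (permutation *P* = 0.0056, adjusted *P* = 0.0927). Without the 2 livers farthest from the median of the markers, *r* was 0.766 in CON, 0.777 in HOX and 0.652 over both groups. *AFP*, the fetal serum protein of hepatocytes, ranged from 47.1 to 2156 CPM within CON and had *r* = 0.608 with *GPD1* over both groups, while the other 10 markers had *r* from −0.370 (*HGFAC*) to 0.401 (*SPP2*). Without *AFP*, an alternative chosen after the values were seen, the marker mean had *r* = 0.0668 in CON (exact permutation *P* = 0.863), 0.372 in HOX (exact permutation *P* = 0.542) and 0.226 over both groups (permutation *P* = 0.436, rho 0.0853 with permutation *P* = 0.755). With the percent of reads on 3 mitochondrial genes, *r* was 0.554 over the 16 livers (permutation *P* = 0.0347, adjusted *P* = 0.174) and rho 0.488 (permutation *P* = 0.0660, adjusted *P* = 0.275). That relation fell to *r* = 0.370 without CON animal 2 and HOX animal 7, so it rested in part on those livers. *GPD1* showed smaller correlations over the 16 livers with the erythroid markers (*r* = 0.205, rho = 0.0941, permutation *P* = 0.455 and 0.734), with log2 total count (*r* = −0.285, rho = −0.226, permutation *P* = 0.282 and 0.398) and with the first principal component (*r* = −0.302, rho = −0.368, permutation *P* = 0.238 and 0.137). Adjusted *P* values of these 3 relations lay between 0.323 and 0.969, and without the 2 farthest livers *r* was 0.0156, −0.0679 and −0.216. For log2 total count the groups differed in sign, with *r* = 0.212 in CON (exact permutation *P* = 0.570) and −0.693 in HOX (exact permutation *P* = 0.0956, adjusted *P* = 0.263). In HOX it was −0.954 without animal 7, −0.660 without animal 1 and −0.551 without animals 1 and 2. At a level of 0.05 after adjustment, no relation of *GPD1* passed.

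*MPC1* fell as the mean of the measured erythroid markers rose, in a setting where many genes followed *MPC1*. Beyond an *r* of 0.5 in either direction lay 36.7% of all genes, and 15.7% without HOX animal 1. Of 11 erythroid markers listed, 4 were measured (*ANK1*, *CPOX*, *EPOR* and *TFRC*, a membrane skeleton protein, an enzyme of haem synthesis, the erythropoietin receptor and the transferrin receptor). Against their mean, *r* was −0.697 in CON (exact permutation *P* = 0.0370), −0.683 in HOX (exact permutation *P* = 0.0282) and −0.640 over the 16 group-centred livers (permutation *P* = 0.0017, adjusted *P* = 0.0574). Spearman's rho was −0.650 in CON (exact permutation *P* = 0.0666) and −0.679 in HOX (exact permutation *P* = 0.110). Over the 16 it was −0.759 (permutation *P* = 0.00063, adjusted *P* = 0.0208), the only adjusted value below 0.05 among the 33 relations. The coefficient *r* was −0.559 without CON animal 5 and HOX animal 4, the 2 livers farthest from the median, and −0.695 without HOX animal 1. Within CON alone it fell to −0.218 without animals 1 and 5 and so rested on them, and within HOX alone it was −0.587 without animals 1 and 4. The sign was negative in both groups. Whether the share of erythroid cells takes part in the spread of *MPC1* was not tested.

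The relation of *MPC1* to the hepatocyte markers turned on HOX animal 1. In CON *r* was 0.708 (exact permutation *P* = 0.0328, adjusted *P* = 0.174) and rho 0.683 (exact permutation *P* = 0.0503, adjusted *P* = 0.275), but *r* fell to 0.0760 without animals 3 and 4. In HOX *r* was −0.735 with all 7 livers (exact permutation *P* = 0.129), rho was −0.107 (exact permutation *P* = 0.840), and *r* was 0.701 without animal 1 and −0.142 without animals 1 and 5. Over both groups *r* was −0.396 with all 16 livers (permutation *P* = 0.229), rho was 0.0353 (permutation *P* = 0.901), and *r* was 0.703 without HOX animal 1 and 0.612 without CON animal 4 as well. These values depended in part on *AFP*. With *AFP* left out of the mean, *r* was 0.662 in CON and 0.501 without CON animals 4 and 6, then the farthest from the median. In HOX it was −0.818 with all livers, 0.876 without animal 1 and 0.314 without animals 1 and 5, and over both groups −0.544, or 0.723 without HOX animal 1. Scores on the first principal component, which set HOX animal 1 apart from the rest, had *r* = 0.856 over 16 livers (permutation *P* = 0.0580, rho 0.488 with permutation *P* = 0.0939) and 0.0694 without HOX animal 1, or 0.0959 without HOX animals 1 and 7. A first component recomputed without HOX animal 1 is another axis with no fixed sign, and *MPC1* followed it with *r* = 0.729 over the 15 livers (permutation *P* = 0.0046). For log2 total count *r* was 0.555 (permutation *P* = 0.0471, adjusted *P* = 0.194, rho 0.315 with permutation *P* = 0.278), and 0.146 without HOX animal 1, the library with the highest total, or 0.270 without HOX animals 1 and 2. With the percent of mitochondrial reads *r* was 0.0160 (permutation *P* = 0.963, rho 0.176 with permutation *P* = 0.502). It was 0.317 without HOX animal 1, and −0.0928 without CON animal 2 and HOX animal 7. Adjusted *P* values of these relations over both groups lay between 0.194 and 0.991.

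**Figure D3:**
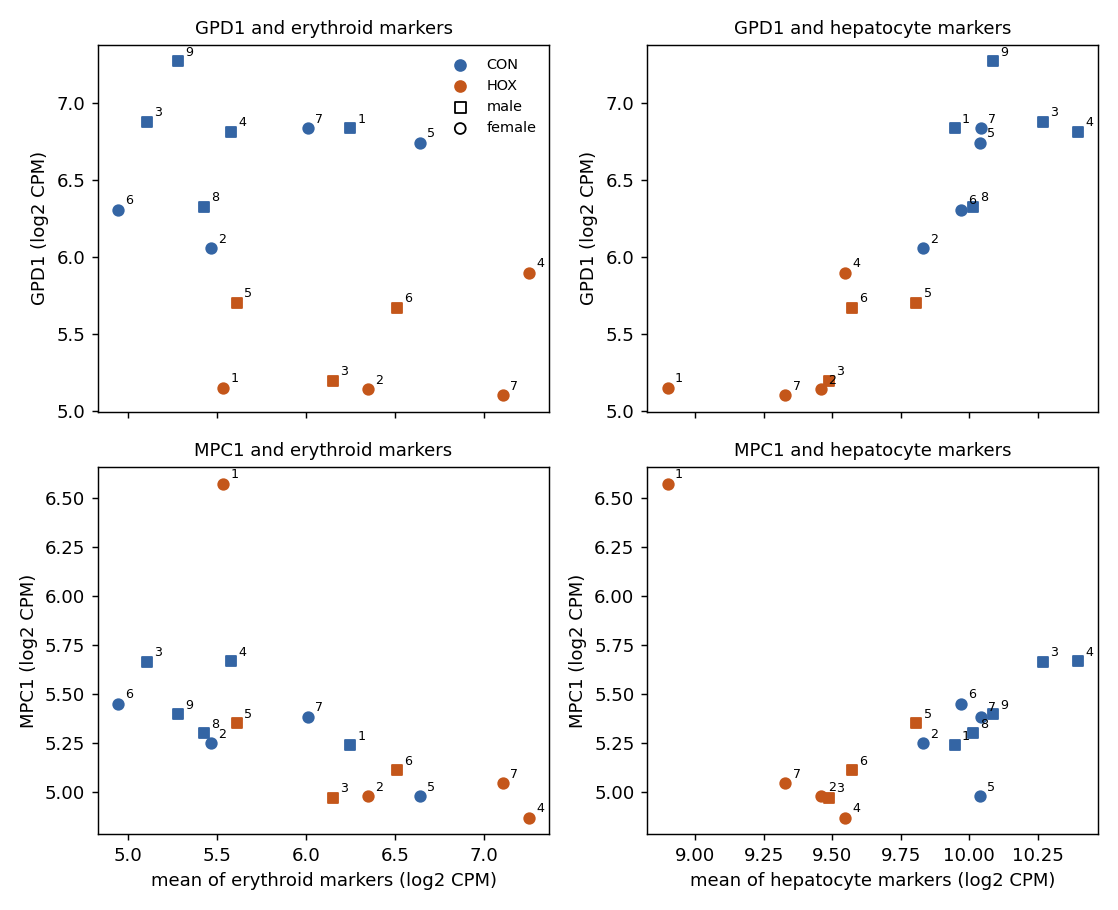
*GPD1* (top) and *MPC1* (bottom) against the mean log2 CPM of 4 erythroid markers (left) and 11 hepatocyte markers (right) in 16 livers, with CON in blue, HOX in orange, squares for males, circles for females and numbers for animals. *MPC1* falls with the erythroid markers within both groups, though in CON this rests on animals 1 and 5. HOX animal 1 is highest in *MPC1* and lowest in the mean of the hepatocyte markers.

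Genes that vary with *GPD1* within groups were sought with the group-centred log2 CPM of *GPD1* as a covariate beside group, which uses none of the difference that chose the gene. With edgeR, 0 of 8579 genes (0%) passed an adjusted *P* of 0.15, and the lowest adjusted *P* was 0.934. An unadjusted edgeR *P* under 0.05 was found for 422 genes (4.92%), about the share expected with no relation to *GPD1*. DESeq2 called 9 genes, 4 rising and 5 falling with *GPD1*. With each liver left out in turn, edgeR's count was again 0. *MPC1* had a coefficient of −0.20 log2 units per log2 unit of *GPD1* (SE 0.334, adjusted *P* = 0.956) with all livers. Its sign turned without HOX animal 1 (0.14, SE 0.161) or HOX animal 4 (0.01) and with the first principal component as a covariate (0.23). The difference in slope between HOX and CON passed in 0 genes with edgeR, with 318 at an unadjusted *P* under 0.05, and in 9 with DESeq2. No named gene below therefore passed edgeR's test, and the genes are given as those with the most similar pattern.

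Likeness to *GPD1* was measured as Pearson's *r* of group-centred log2 CPM over 16 livers. Across 8579 genes it ran from −0.809 to 0.826 with a median of 0.0161, and 508 genes (5.92%) were beyond 0.5 in either direction. The 2 most similar genes have no symbol, ENSOARG00020003783 (*r* = 0.826) and ENSOARG00020020909 (*r* = 0.812). Among the 428 other genes with a symbol, the highest were *CBR1* (ENSOARG00020014533), a carbonyl reductase that uses NADPH, with *r* = 0.708 and rank 11 of 8579, and *PPP1R1A*, an inhibitor of protein phosphatase 1, with *r* = 0.705 and rank 14. For *CBR1*, *r* was 0.560 in CON and 0.921 in HOX, and its expression was 224 ± 46.0 CPM in CON and 132 ± 31.1 in HOX. For *PPP1R1A*, *r* was 0.763 and 0.629, with 88.0 ± 22.5 and 57.7 ± 14.2 CPM. A second identifier that carries the symbol *CBR1* (ENSOARG00020014594) did not share the pattern, with *r* = −0.150. Whether reads were split between these 2 identifiers was not tested.

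The next 8 were *LZIC*, *NGEF*, *CRIP3*, *CDK5RAP3*, *AFP*, *EAF2*, *TMA7* and *CALML4*, with *r* between 0.583 and 0.655 and ranks from 31 to 99. *AFP* had the steepest coefficient of the 10, 2.46 log2 units per log2 unit of *GPD1* (unadjusted *P* = 0.0119, adjusted *P* = 0.934 by edgeR), with *r* = 0.561 in CON and 0.746 in HOX. It also varied most, at 603 ± 654 CPM in CON and 75.6 ± 41.8 in HOX. *CALML4*, a relative of calmodulin, was closer to *GPD1* in HOX (*r* = 0.898) than in CON (*r* = 0.353), but the difference between its slopes on *GPD1* did not pass (edgeR adjusted *P* = 0.998).

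At the other end stood ENSOARG00020024839 (*r* = −0.809) and ENSOARG00020003488 (*r* = −0.799), both without a symbol. The first of these was abundant, at 3327 ± 449 CPM in CON and 4045 ± 781 in HOX. With a symbol, *SPAG9*, a scaffold of JNK signalling, came lowest (*r* = −0.672, rank 29 from the bottom), followed by *STAT6*, the transcription factor of interleukin-4 signalling (*r* = −0.623, rank 55). *KL* (klotho) had *r* = −0.580 and *SULT2A1*, a sulfotransferase for steroids and bile acids, *r* = −0.562. For *SULT2A1*, *r* was −0.878 in HOX and −0.258 in CON. *AOX1*, the aldehyde oxidase of hepatocytes, had *r* = −0.423, with −0.787 in CON and −0.188 in HOX, where animal 1 was lowest at 146 CPM. Without HOX animal 1 its *r* over both groups was −0.685. The slope on *GPD1* did not pass as different between groups for *SULT2A1* (edgeR unadjusted *P* = 0.00797, adjusted *P* = 0.998) or *AOX1* (adjusted *P* = 0.998). *RXRA*, *APPBP2*, *MX1*, *MAP3K6* and *FCHO1* completed the 10, with *r* between −0.453 and −0.398 and ranks of 356 to 532 from the bottom. These last genes lie well inside the distribution and are named only because few genes have a symbol.

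For *MPC1* the same fit gave a count that 1 liver dominated. With all 16 livers, 3068 of 8579 genes (35.8%) passed, 1513 rising and 1555 falling with *MPC1*. Without HOX animal 1 there were 441 of 8489 (5.19%), 94 rising and 347 falling. The lists shared 294 genes, 9.58% of the first and 66.7% of the second, and 291 of those had the same sign. In CON alone 0 genes passed in edgeR, with 761 at an unadjusted *P* under 0.05, and in HOX alone 3620 passed. DESeq2 called 3301 genes with all livers and 597 without HOX animal 1. *GPD1* was not among the calls, with a coefficient of −0.10 (SE 0.224, adjusted *P* = 0.780) with all livers and 0.31 (SE 0.433, adjusted *P* = 0.828) without HOX animal 1.

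The genes most like *MPC1* were ENSOARG00020026463 (*r* = 0.936), *TUFM*, the mitochondrial translation factor (*r* = 0.924, rank 2 of 8579), and ENSOARG00020021985 (*r* = 0.918). Next among those with a symbol came *KDELR2*, *IMP4*, *BZW2*, *TMED9*, *JAGN1*, *MRPS31*, *HSD17B10*, *NHP2* and *PRR13*, with *r* from 0.849 to 0.886. They include a mitochondrial ribosomal protein (*MRPS31*), a mitochondrial dehydrogenase (*HSD17B10*), nucleolar proteins (*IMP4*, *NHP2*) and proteins of transport between the endoplasmic reticulum and Golgi (*KDELR2*, *TMED9*). Several owed their place to HOX animal 1. *TUFM* was at 177 CPM there, against means of 86.0 ± 5.88 in CON and 85.2 ± 40.8 in HOX, and its *r* was 0.537 without that liver. *MRPS31* fell from *r* = 0.858 to 0.270, *BZW2* from 0.875 to 0.273, *IMP4* from 0.883 to 0.286 and *NHP2* from 0.851 to 0.333. *HSD17B10*, *KDELR2* and *TMED9* had 0.525, 0.538 and 0.576 without it. *PRR13* and *JAGN1* kept 0.641 and 0.669, and ENSOARG00020026463 kept 0.766.

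Genes running against *MPC1* were led by ENSOARG00020015878 (*r* = −0.911) and ENSOARG00020025565 (*r* = −0.910), and with a symbol by *USP20*, a deubiquitinating enzyme (*r* = −0.903, rank 3 from the bottom). *FAM117A*, *CDAN1*, *KDM3B*, *TAB1*, *LDB1*, *LRIG3*, *CHAMP1*, *IGSF8* and *FBXO7* followed, with *r* from −0.887 to −0.809. Without HOX animal 1, *CHAMP1*, *FBXO7* and *USP20* kept the largest *r* of these genes with a symbol, −0.753, −0.745 and −0.717, and *FAM117A* the smallest, −0.332. *USP20* was at 16.0 CPM in that liver, against 29.3 ± 4.77 in CON and 35.6 ± 11.2 in HOX as a whole. Among the erythroid markers, *CPOX* and *EPOR* fell with *MPC1* without HOX animal 1 (edgeR adjusted *P* = 0.0316 for both, *r* = −0.739 and −0.741), and *ANK1* did so too (adjusted *P* = 0.0602, *r* = −0.662). *TFRC*, the 4th, did not (adjusted *P* = 0.725, *r* = −0.326). With all 16 livers, where 35.8% of all genes passed, *ANK1*, *EPOR* and *TFRC* did (adjusted *P* = 0.0209, 0.0152 and 0.117) and *CPOX* did not (0.209). Markers of other cells passed without HOX animal 1 as well, where 5.19% of all genes did. Of the 11 hepatocyte genes *ASGR2*, *VTN* and *CPN2* rose with *MPC1* (adjusted *P* = 0.0910, 0.112 and 0.138), the other 8 did not pass, and *HGFAC* had a negative coefficient (−0.44). The endothelial *CD34* fell (0.0883). With all 16 livers other hepatocyte genes passed, and in the opposite direction, with *C9*, *LECT2* and *HGFAC* falling with *MPC1* (adjusted *P* = 0.0152, 0.0438 and 0.0508). The macrophage *CD163* and the mesenchymal *TGFBI* also fell with all livers (0.0181 and 0.0234), and none of these 5 passed without HOX animal 1.

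Sex was not used to choose the genes and was tested in a model with group. *GPD1* was 116 ± 26.3 CPM in CON males (*n* = 5) and 91.7 ± 22.6 in CON females (*n* = 4), and 46.5 ± 8.57 in HOX males (*n* = 3) and 41.2 ± 12.3 in HOX females (*n* = 4). Means were thus higher in males in both groups, by a fitted 0.27 log2 units (SE 0.162), which did not pass the test (edgeR adjusted *P* = 0.974). *MPC1* was 44.1 ± 6.22 CPM in CON males and 38.7 ± 5.35 in CON females, and 35.5 ± 4.79 in HOX males and 47.1 ± 31.9 in HOX females, which include animal 1. Without it the HOX females had 31.2 ± 1.90 CPM (*n* = 3). The fitted difference of males from females in *MPC1* was −0.07 (SE 0.224, edgeR adjusted *P* = 0.988), and 0.19 without HOX animal 1.

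In the test of sex 2 of 8580 genes (0.0233%) were called by edgeR, both lower in males and without a symbol, ENSOARG00020023139 and ENSOARG00020022577. DESeq2 called 7, and edgeR called 1 when CON animal 2, 5, 6, 7 or 8 or HOX animal 2 was left out. The interaction of sex and treatment was −0.16 (SE 0.333) for *GPD1* and −0.60 (SE 0.435) for *MPC1*, with an adjusted *P* of 0.999 for both in edgeR, and it was 0.01 for *MPC1* without HOX animal 1. That interaction passed in 0 genes with edgeR, with 281 at an unadjusted *P* under 0.05, and in 6 with DESeq2, and in 3 with edgeR when HOX animal 4 was left out.

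Other genes of the pathways of *GPD1* and *MPC1* could be described only where the supplementary gene list gives a symbol. That list was itself drawn up from these livers, for their difference between HOX and CON, so the directions and counts below are not independent evidence, and no set was tested. Of the 429 tested genes with a symbol, 277 (64.6%) were lower in HOX, the median log2 fold change was −0.21, and 307 (71.6%) had an unadjusted edgeR *P* under 0.05. Among them edgeR called 4 and DESeq2 176 (41.0%). Of 13 genes of the NADH shuttles only *GPD1* had a symbol, of 26 genes of pyruvate and lactate metabolism only *MPC1* had one, and of 23 genes of glycolysis and gluconeogenesis there were 0. The partner subunit, the mitochondrial glycerol-3-phosphate dehydrogenase and the lactate dehydrogenases were not analysed here.

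A list of 31 genes drawn up for glycerolipid synthesis and the use of glycerol 3-phosphate gave 7 measured genes. The acyltransferases that act on glycerol 3-phosphate itself were not among the 7, and 7 of the 7 had lower means in HOX. edgeR called 0 of them at an adjusted *P* of 0.15 (5 at an unadjusted *P* under 0.05) and DESeq2 called 2 (*PLD1* and *ACSL5*). Their median log2 fold change was −0.49, against −0.21 over the tested genes with a symbol and 0.01 over all tested genes. *ACSL5*, which activates long-chain fatty acids, had 156 ± 28.7 CPM in CON and 110 ± 27.5 in HOX (log2 fold change −0.51, SE 0.149, edgeR adjusted *P* = 0.253). *PLD1*, a phospholipase D, had 21.0 ± 4.00 and 14.2 ± 2.80 CPM (−0.56, SE 0.145, adjusted *P* = 0.224). *PEMT*, which methylates phosphatidylethanolamine to phosphatidylcholine, had 108 ± 16.9 and 76.0 ± 24.4 CPM, and 34.4 in HOX animal 1. *TM6SF2*, *DGKQ*, *AGPAT1* and *CDIPT* made up the list with log2 fold changes from −0.49 to −0.18. That of *DGKQ* was −0.18 with all livers and −0.38 without HOX animal 1. Within groups *PEMT* had the highest *r* with *GPD1* of the 7 (0.529), and *AGPAT1*, an acyltransferase that makes phosphatidic acid, had the highest with *MPC1* (0.833, and 0.688 without HOX animal 1, where its edgeR adjusted *P* was 0.141).

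A list of 14 genes drawn up as cytosolic oxidoreductases of NADH and NADPH gave 9 measured identifiers, 2 of them for *CBR1*. Among the 9, *AOX1* passes electrons to oxygen and *RTN4IP1* is mitochondrial, so neither is a cytosolic enzyme of these cofactors. Lower values in HOX were seen for 7 and higher values for 2, with a median log2 fold change of −0.50. edgeR called 0 of the 9 (8 at an unadjusted *P* under 0.05) and DESeq2 called 6. *CBR1* (ENSOARG00020014533) had a log2 fold change of −0.76 (SE 0.159, edgeR adjusted *P* = 0.186) and *IDH1*, the cytosolic isocitrate dehydrogenase, −0.50 (SE 0.147, adjusted *P* = 0.253). *AOX1* was higher in HOX, from 178 ± 42.2 CPM in CON to 340 ± 138 in HOX (0.94, SE 0.234, adjusted *P* = 0.224). *CYB5R3*, the NADH-dependent cytochrome b5 reductase, had 236 ± 27.4 and 196 ± 18.1 CPM (−0.27, SE 0.0863, adjusted *P* = 0.292). Its *r* with *GPD1* within groups was 0.512, the second of the list after *CBR1*.

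A list of 16 enzymes drawn up for the entry of other sugars gave 4 measured genes. *GALT*, *MPI* and *PMM1* had lower means in HOX and *XYLB*, the xylulokinase, a higher mean, and the median log2 fold change was −0.36. *GALT*, which acts on galactose 1-phosphate, had 163 ± 43.4 CPM in CON and 103 ± 21.8 in HOX (−0.67, SE 0.167, edgeR adjusted *P* = 0.224). edgeR called 0 of the 4 (4 at an unadjusted *P* under 0.05) and DESeq2 called 2, *GALT* and *MPI*. Across the whole HOX against CON fit, 1022 genes had an unadjusted edgeR *P* under 0.05.

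Markers of liver cell types also had different means in the groups, but edgeR called 0 of them, and they too could be measured only through the supplementary list. Summed over the 11 measured hepatocyte markers, CON livers had 22225 to 33225 CPM (median 26181) and HOX livers 15784 to 24976 (median 19431), with the lowest sum in HOX animal 1. Marker by marker, that animal was the lowest HOX liver in all but *AFP*, *AGT* and *FGG*. In 10 of the 11 the mean was lower in HOX, with *HGFAC* the exception, and the median log2 fold change was −0.50. *FGG*, fibrinogen gamma and the most abundant of them, had 8258 ± 1401 CPM in CON and 6653 ± 676 in HOX. edgeR called 0 of the 11 (11 at an unadjusted *P* under 0.05) and DESeq2 called 7; of all tested genes with a symbol, 71.6% had such an unadjusted *P* and DESeq2 called 41.0%. Beside −1.27 for *GPD1*, the log2 difference was −2.99 (SE 0.665) for *AFP* and lay between −0.72 (*LECT2*) and 0.43 (*HGFAC*) for the other 10.

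The 4 erythroid markers summed to 170 to 533 CPM in CON (median 248) and 259 to 772 in HOX (median 441), and all 4 had higher means in HOX, with a median log2 fold change of 0.73. Their most abundant gene was *ANK1*, at 143 ± 57.6 CPM in CON and 224 ± 95.5 in HOX. HOX animal 1 had the lowest erythroid sum of the HOX livers, 259 CPM, and the highest *MPC1*. Of the erythroid markers edgeR and DESeq2 each called 0, and 4 had an unadjusted edgeR *P* under 0.05. Whether the level of these markers takes part in the difference in *GPD1* or *MPC1* between groups was not tested.

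Other cell types were represented by few genes. The macrophage marker *CD163* had 323 ± 58.1 CPM in CON and 213 ± 83.3 in HOX and was lowest in HOX animal 1, at 61.9. The endothelial marker *CD34* had 13.7 ± 6.97 and 28.3 ± 12.8 CPM. Of mesenchymal genes, *ASPN* had 58.2 ± 9.64 CPM in CON and 75.9 ± 10.5 in HOX and *TGFBI* 120 ± 17.0 and 85.3 ± 31.3. edgeR called 0 of these 4 genes (4 at an unadjusted *P* under 0.05), and DESeq2 called 2, *CD34* and *ASPN*. For adipocytes and skeletal muscle 0 of 5 listed markers each had a symbol, so RNA from those tissues was not assessed.

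In the gene order of the sheep assembly ARS-UI_Ramb_v3.0, another build than that of the counts, *GPD1* lies next to *SMARCD1* and *MPC1* lies between *SFT2D1* and *RPS6KA2*. The nearest genes of the supplementary list are *DNAJC22* and *SLC11A2* for *GPD1*, each with 16 protein-coding genes between, and *SOD2* for *MPC1*, with 26 between. *DNAJC22*, 1 of the 5 genes called by edgeR, did not follow *GPD1* within groups (*r* = 0.0711).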

How the data were processed

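PolyA-enriched RNA from 16 fetal livers (9 CON, 7 HOX) was sequenced from libraries made with the Universal Plus mRNA kit. The authors mapped reads with STAR 2.7.10b (version from the submitters' processing notes) to ARS-UI_Ramb_v1.0, annotated by Ensembl. The deposited values are raw counts for each gene in each liver, whole numbers that carry no normalisation and no filter. The counting rule and the use of strand are not given in the sources used here, so reads of near-identical or overlapping genes may have been split or lost. Each column was matched to a liver by the library name in its labels, and 0 columns were left unmapped. Of 26478 genes, 5307 had 0 reads in all livers. No 2 libraries were duplicates, since counts of each pair differed at least 63.2 times more than counting noise (chi-square per degree of freedom).

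The main test was the quasi-likelihood test of edgeR 4.0.16 under R 4.3.3 (TMM, robust=FALSE), with DESeq2 1.42.0 and limma 3.58.1 as alternatives. Correlations, lists and plots were made in Python 3.11.15 (scipy 1.17.1, numpy 2.4.6; plots with matplotlib 3.10.9). A gene was kept if 8 or more livers had 250 or more reads on it (8580 genes, 97.7% of reads), and a gene was called at a Benjamini-Hochberg adjusted *P* under 0.15. Log2 CPM used a prior count of 2. Genes varying with *GPD1* or *MPC1* were tested with that gene's group-centred log2 CPM and group in the model. Correlations used exact permutations within a group, or 100000 permutations within groups for all 16 livers. The tests of group, sex, their interaction, *GPD1* as covariate and slopes on *GPD1* were first run on simulated counts. There DESeq2 made a larger share of false calls than the threshold allows in each of them. The share for edgeR was slightly larger than allowed in the tests of the *GPD1* covariate and of slopes. The fit with *MPC1* as covariate, limma-voom and the permutation tests were not simulated, so their error rates here are not known.

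Named genes are *GPD1*, *MPC1*, each measured member of the lists and markers except 1 that is not reported here, and, for each of the 2 genes, the 10 highest and 10 lowest by group-centred *r* among genes with a symbol, with up to 2 identifiers without a symbol in each direction. Symbols came from a supplementary list of 487 identifiers, 438 of them with a symbol and 429 tested. The members and lists were chosen with earlier results of these data known. The table of ARS-UI_Ramb_v3.0 matched 0 identifiers and served for neighbours by symbol only. Sequences of the proteins and promoters, part of the design, were not analysed here. Alternatives covered scaling, filter, test, sex, the first principal component and leaving out each liver. The fits in CON or HOX alone, DESeq2 without HOX animal 1, and the hepatocyte markers without *AFP*, were added after the data had been seen.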

Additional observations from a re-analysis of the deposited data

Results flagged for a closer look

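Values were checked for a single liver far from the rest of its group, by the gap to the nearest liver as a share of the group's range. Over 182 sets of values (a gene or library measure in CON or in HOX), 29 passed Dixon's 95% limit, where chance alone gives about 1 in 20, and 25 of the 29 concerned HOX animal 1. *MPC1* was among them, with a gap of 0.718 of the HOX range, 6.57 log2 CPM in animal 1 against 4.87 to 5.35 in the others. *GPD1* was not. On the first principal component the gap of HOX animal 1 was 0.727.

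Genes chosen for their likeness to *MPC1* share this liver by construction. It was the highest HOX liver for *TUFM* (gap 0.844), *IMP4* (0.938), *BZW2* (0.771), *MRPS31* (0.651), *HSD17B10* (0.607), *NHP2* (0.766), ENSOARG00020026463 (0.612) and ENSOARG00020021985 (0.670). It was the lowest for *FAM117A* (0.804), *CDAN1* (0.748), *KDM3B* (0.663), *TAB1* (0.583), *LRIG3* (0.656), ENSOARG00020015878 (0.804) and ENSOARG00020025565 (0.763).

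Outside that choice, HOX animal 1 was lowest for the hepatocyte markers *C9* (gap 0.802) and *LECT2* (0.722), the macrophage marker *CD163* (0.614), the mesenchymal *TGFBI* (0.659), *PEMT* (0.595) and *EAF2* (0.653). It was highest for *DGKQ* (0.575) and for the interferon-induced *MX1* (0.646). In CON, the gap was 0.525 for *F7* (animal 5, lowest), 0.653 for *IMP4* (animal 6, highest), 0.572 for *BZW2* (animal 7, lowest) and 0.508 for ENSOARG00020025565 (animal 5, highest). What sets HOX animal 1 apart was not tested.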

How the results depend on the processing

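The log2 difference of *GPD1* kept its sign under every alternative run, from −1.35 to −1.17 with each liver left out. That of *MPC1*, 0.02 with all livers, ranged from −0.32 (without HOX animal 1) to 0.12, and was −0.28 with limma-voom and sample weights and −0.32 with DESeq2 without HOX animal 1. Calls for HOX against CON, 5 in edgeR, were 237 with DESeq2, 146 with limma-voom, 1 with library totals, 1 with a filter at 10 reads in 7 livers, 523 with DESeq2 without HOX animal 1, and 1 to 47 with each liver left out. Genes varying with *GPD1* numbered 9 with DESeq2, 15 with DESeq2 without HOX animal 1, and 0 in every edgeR fit (0 to 0 with a liver left out). Those varying with *MPC1* numbered 303 with the first principal component as a covariate, 0 in CON alone, 597 with DESeq2 without HOX animal 1, and 441 to 3361 with a liver left out, the lowest without HOX animal 1. For sex the count was 7 with DESeq2 and 1 to 2 with a liver left out, for its interaction with treatment 6 and 0 to 3 (3 without HOX animal 4), and for the difference in slope on *GPD1* 9 and 0 to 0. The causes were not tested. Depth limits little here, since counting error was at most 3.78% of a value of either gene.

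Animal numbers of the labels as a replicate block gave 0 calls (756 genes at an unadjusted *P* under 0.05), −1.23 for *GPD1* and −0.12 for *MPC1*. The numbers do not pair the livers. Deviations of CON and HOX livers with the same number correlated between −0.314 and 0.153 over 7 pairs, 3 of them above 0.1, and 0 livers correlated best with their own number.

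With a liver left out, *r* of *GPD1* with *MPC1* ran from 0.120 to 0.366 in CON, −0.396 to 0.184 in HOX and −0.153 to 0.210 over both. Over both groups, *r* of *GPD1* ran from 0.0433 to 0.325 with erythroid markers, 0.496 to 0.621 with hepatocyte markers (0.226 without *AFP*), −0.409 to −0.179 with total count, 0.440 to 0.745 with mitochondrial reads and −0.365 to 0.0235 with the first principal component. For *MPC1* these ranges were −0.695 to −0.601, −0.539 to 0.703, 0.146 to 0.702, −0.0486 to 0.317 and 0.729 to 0.914, where the component was recomputed and has no fixed sign. The sign also turned in 1 or more of these fits for *GPD1* in the interaction with sex (−0.28 to 0.055) and with erythroid markers in HOX (−0.270 to 0.522). For *MPC1* it turned for sex (−0.15 to 0.19), its interaction (−0.80 to 0.0091) and, in HOX, hepatocyte markers (−0.940 to 0.701), total count (−0.383 to 0.745) and mitochondrial reads (−0.366 to 0.0749). With the recomputed component, *r* of *GPD1* ran from −0.319 to 0.0723 in CON and −0.576 to 0.444 in HOX. That of *MPC1* ran from −0.404 to 0.297 in CON. Since this component has no fixed sign, a change of sign in these ranges has no meaning. Of the other values, for genes named singly, 1980 stayed on their side of the threshold or within the limit set for a move, 82 passed it newly, 15 no longer did, 20 moved and 11 turned their sign.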
